A study of Mus musculus with 6 samples.

Results

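The genes described here encode the enzymes and regulators that make cholesterol and fatty acids. They were chosen by name as 37 symbols, 21 of the sterol branch and 16 of the fatty acid branch, and each had its own row among the 53733 named rows of the count table. RNA came from an acute myeloid leukaemia line made from mouse foetal liver cells, which carried MLL-AF9, a constantly expressed fusion oncogene, on a retroviral vector with the luciferase Luc2. A further retroviral vector, TRE-tight-DsRED-IRES-FLT3-ITD, carried FLT3-ITD, a mutant cytokine receptor with constant kinase activity, and was switched on by doxycycline. Every NSG mouse, an immunodeficient strain, was injected with the line through the tail vein and given doxycycline in its food and water for 96 h of engraftment. In the OFF group (3 mice) doxycycline was then removed for 48 h to deplete FLT3-ITD, and in the ON group (3 mice) it was continued. Living leukaemia cells were isolated from the marrow by sorting, at the same time in both groups, and libraries were made from the 3' ends of their mRNAs. All samples come from this single line, so the mice are replicates of the host and not of the leukaemia.

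Cholesterol is built from acetyl-CoA through mevalonate, isoprenoids, squalene and lanosterol, and fatty acids are built from the same acetyl-CoA through malonyl-CoA. Both routes are controlled by SREBP transcription factors, which are held in the endoplasmic reticulum by INSIG proteins while sterols are plentiful and are released to the nucleus when sterols run low. SREBP2, made by Srebf2, acts mainly on the sterol genes, and SREBP1, made by Srebf1, mainly on the fatty acid genes. Dividing cells use both products to make membranes.

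After doxycycline withdrawal the called sterol members went in both directions, and the changes over 2-fold were all in the fatty acid branch. Agpat5, which makes the phospholipid precursor phosphatidic acid, fell to 30.8 ± 8.38 CPM in OFF, against 80.9 ± 3.79 CPM in ON (SD, n = 3 each; CPM are counts scaled to a common library size). Fatty acid synthase (Fasn) fell to 44.7 ± 6.31 CPM in OFF, against 78.1 ± 3.71 CPM in ON, and the elongase Elovl6 fell to 3.44 ± 1.53 CPM in OFF, against 7.61 ± 0.363 CPM in ON (SD, n = 3 each). The lipin Lpin1 rose to 9.23 ± 0.982 CPM in OFF, against 4.40 ± 0.585 CPM in ON (SD, n = 3 each). Srebf2, Srebf1, Insig1 and the mevalonate pathway enzyme Hmgcs1 did not pass the test, with log2 fold changes (OFF minus ON) between -0.05 and 0.02.

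Of the 37 members, 34 passed the filter on low counts and were tested by edgeR's quasi-likelihood test. A member was called at an adjusted p of at most 0.05 over all 13652 tested rows. Of the 21 sterol members, all tested, 3 were called higher in OFF and 2 lower. Of the 13 tested fatty acid members, 2 were called higher and 4 lower. Together these are 32.4% of the tested members, near the 34.8% of all tested rows that were called (17.3% higher and 17.5% lower). By branch, 23.8% of the tested sterol members and 46.2% of the tested fatty acid members were called, and whether the branches differ was not tested. The 3 OFF values lay entirely above or below the 3 ON values in 7 of 21 sterol and 6 of 13 fatty acid members, against 48.3% of all tested rows. The median log2 fold change was -0.02 over sterol members and -0.21 over fatty acid members, beside 0.0043 over all tested rows. Without OFF replicate 1, 5 sterol members were called lower, and without ON replicate 2, only 1 was called higher. Of the fatty acid members, 1 was called higher without OFF replicate 2, ON replicate 2 or ON replicate 3. The share of all tested rows called moved as well. It was 38.9% without OFF replicate 1, 25% without OFF replicate 2, 23.5% without ON replicate 2 and 23.9% without ON replicate 3.

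**Figure D1:**
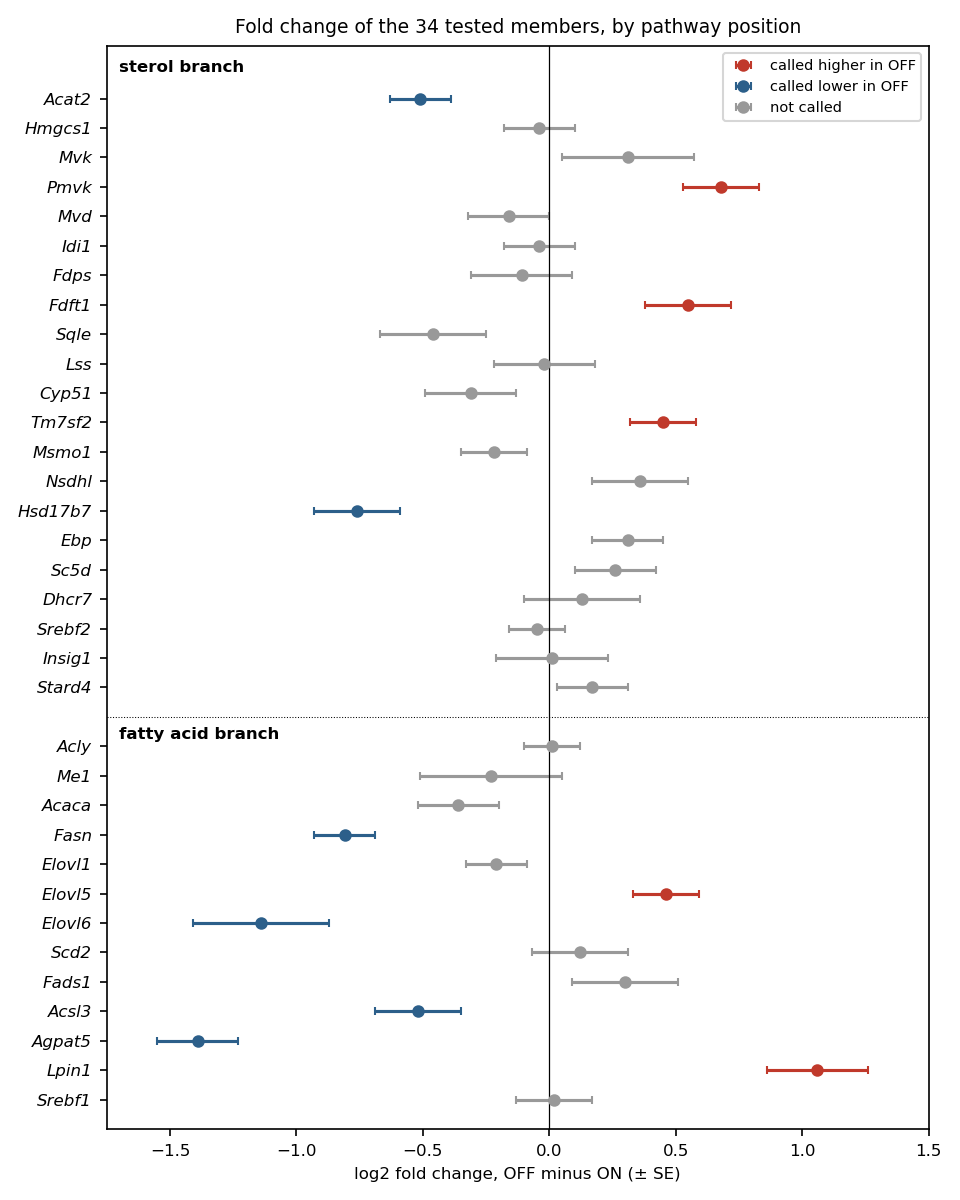
Log2 fold change (OFF minus ON, horizontal axis) of the 34 tested members in pathway order, with bars of 1 SE; red marks members called higher in OFF, blue those called lower and grey those not called. The calls range between -1.39 for Agpat5 and 1.06 for Lpin1, and the sterol members lie between -0.76 and 0.68.

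The 6 libraries held between 8335234 and 9316361 counts in named rows, and a single count equalled 0.124 CPM or less. OFF replicate 3 stood apart from OFF replicates 1 and 2 on the second principal component (-29.3 against 23.9 and 14.4), and OFF replicate 1 lay nearest to ON on the first (-21.4). The row of the mouse gene Flt3 (5.44, 5.90 and 9.13 CPM in OFF, and 5.48, 5.81 and 5.71 CPM in ON) is no measure of the transgene, which was not analysed here. Of 11 genes of myeloid cells and of this leukaemia, 10 were tested, 6 of them called higher and 1 lower. The list summed to 4420 to 4660 CPM in OFF and 2660 to 3070 CPM in ON. Most of this sum came from the granule protein genes Elane, Prtn3 and Mpo, all called higher. They averaged 1630, 1000 and 803 CPM in OFF, against 840, 691 and 301 CPM in ON. Ctsg, also of granules, was called lower, and Hoxa9, Spi1 and Cebpa did not pass. Of 10 myeloid maturation genes, 9 were called higher and 1 lower (3790 to 8730 CPM in OFF, and 2540 to 2720 CPM in ON). Of 7 erythroid markers, 5 were tested and called higher (577 to 934 CPM in OFF, and 150 to 212 CPM in ON). The globins made up nearly all of this sum, and Klf1, an erythroid transcription factor, stayed below 1 CPM in every library. Of 5 megakaryocyte markers, Gp1bb alone was tested and called higher. The list summed to 54.9 to 63.8 CPM in OFF and 32.2 to 37 CPM in ON. Gp1bb made up nearly all of this sum, and Pf4, Ppbp, Itga2b and Gp9 were at 1.21 CPM or less in every library. Of 5 B cell markers, Ighm alone was tested and called higher (8.22 to 12.1 CPM in OFF, and 2.40 to 5.60 CPM in ON for the list), and Cd79b was at or near 0. Of 6 mature macrophage markers, Vcam1 alone was tested and called lower (16.5 to 23.1 CPM in OFF, and 38.8 to 42.3 CPM in ON for the list), and Cd5l was at 0. The T and NK cell list (6 markers, 2.22 to 4.62 CPM in OFF and 1.6 to 3.19 CPM in ON) and the stromal and endothelial list (7 markers, 7.91 to 11.2 CPM in OFF and 6.20 to 10 CPM in ON, with Lepr at 0) had 1 tested marker each, neither called. The part of these differences in the member results was not tested, and a change in the mix of cells cannot be told apart from a change of RNA per cell in such bulk samples.

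Promoters are shown for the 3 members of each direction with the smallest p that RefSeq's table of promoters held, and for Hmgcs1, chosen after its sequence was seen because it was the sole member with the sterol element searched. Each runs 250 bases before to 50 bases after the annotated start (RefSeq, GRCm38.p6), 5′ to 3′ on the gene's strand. Capitals mark TCACNCCAC, a form of the sterol regulatory element that SREBPs bind, CCAAT, the box bound by NF-Y, a factor known to act with SREBPs at sterol genes, and CACGTG, the E-box, all searched on both strands, so that ATTGG is CCAAT on the other strand. Matches were allowed to overlap.
Lpin1, higher in OFF, chr12:16610917-16611216, minus strand, with no match.
Lpin1: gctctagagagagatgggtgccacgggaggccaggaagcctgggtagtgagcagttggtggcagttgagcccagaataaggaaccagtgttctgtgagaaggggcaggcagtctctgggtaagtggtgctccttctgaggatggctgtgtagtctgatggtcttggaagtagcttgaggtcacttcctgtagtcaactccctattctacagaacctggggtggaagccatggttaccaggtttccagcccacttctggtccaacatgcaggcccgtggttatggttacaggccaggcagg
Pmvk, higher in OFF, chr3:89454291-89454590, plus strand, with 1 CCAAT match.
Pmvk: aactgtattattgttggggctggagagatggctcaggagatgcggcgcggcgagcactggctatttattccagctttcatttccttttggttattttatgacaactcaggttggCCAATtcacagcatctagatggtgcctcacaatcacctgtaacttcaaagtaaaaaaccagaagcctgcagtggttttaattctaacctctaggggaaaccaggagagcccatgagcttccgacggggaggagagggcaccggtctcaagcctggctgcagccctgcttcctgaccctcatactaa
Elovl5, higher in OFF, chr9:77917115-77917414, plus strand, with 2 CCAAT matches and 1 E-box.
Elovl5: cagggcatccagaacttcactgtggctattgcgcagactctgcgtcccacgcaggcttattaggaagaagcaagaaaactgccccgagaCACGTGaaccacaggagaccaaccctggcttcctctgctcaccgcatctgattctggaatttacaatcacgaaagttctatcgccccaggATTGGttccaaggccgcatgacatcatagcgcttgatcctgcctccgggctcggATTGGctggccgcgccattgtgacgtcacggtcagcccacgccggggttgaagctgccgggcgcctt
Fasn, lower in OFF, chr11:120824498-120824797, minus strand, with 3 CCAAT matches, of which 2 overlap.
Fasn: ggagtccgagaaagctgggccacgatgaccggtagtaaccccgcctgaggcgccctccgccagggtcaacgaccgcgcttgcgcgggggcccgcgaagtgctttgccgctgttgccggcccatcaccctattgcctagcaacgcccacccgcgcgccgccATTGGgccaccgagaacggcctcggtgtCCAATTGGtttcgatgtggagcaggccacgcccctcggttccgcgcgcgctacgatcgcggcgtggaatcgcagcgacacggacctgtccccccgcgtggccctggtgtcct
Hsd17b7, lower in OFF, chr1:169969156-169969455, minus strand, with 3 CCAAT matches and 1 E-box.
Hsd17b7: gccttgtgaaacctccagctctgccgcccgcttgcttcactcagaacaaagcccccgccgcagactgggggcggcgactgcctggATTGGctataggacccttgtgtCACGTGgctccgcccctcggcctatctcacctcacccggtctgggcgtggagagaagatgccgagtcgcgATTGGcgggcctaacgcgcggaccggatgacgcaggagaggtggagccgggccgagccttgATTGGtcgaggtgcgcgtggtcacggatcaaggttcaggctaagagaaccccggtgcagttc
Acat2, lower in OFF, chr17:12960676-12960975, minus strand, with no match.
Acat2: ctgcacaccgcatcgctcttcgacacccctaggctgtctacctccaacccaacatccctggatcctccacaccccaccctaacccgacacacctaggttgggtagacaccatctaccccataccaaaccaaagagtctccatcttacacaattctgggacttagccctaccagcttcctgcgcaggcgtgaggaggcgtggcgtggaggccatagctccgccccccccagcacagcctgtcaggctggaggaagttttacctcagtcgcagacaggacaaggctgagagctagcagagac
Hmgcs1, not called, chr13:119690101-119690400, plus strand, with 1 sterol element and 4 CCAAT matches.
Hmgcs1: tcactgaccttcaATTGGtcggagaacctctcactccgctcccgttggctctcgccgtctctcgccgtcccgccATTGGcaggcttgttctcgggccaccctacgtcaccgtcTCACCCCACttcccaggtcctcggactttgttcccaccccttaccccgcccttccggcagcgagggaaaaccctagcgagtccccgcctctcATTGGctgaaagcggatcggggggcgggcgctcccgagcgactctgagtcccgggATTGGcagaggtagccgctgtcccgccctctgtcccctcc

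CCAAT was frequent in both directions and among members that were not called. It was present in 15 of 17 sterol members with a promoter in the table (88.2%) and in 7 of 12 fatty acid members (58.3%), beside 39.9% of the 8726 promoters of tested rows. Among the 9 called members with a promoter it was present in 6. The sterol element was found in 1 of 29 member promoters (3.45%), that of Hmgcs1, beside 0.974% of promoters of tested rows. The E-box was found in 4 of 29 (13.8%), beside 10.7% of promoters of tested rows. These matches describe the letters of the windows and not binding, and a missing match says only that these letters are not in this window.

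In the mevalonate arm, which carries acetyl-CoA to farnesyl diphosphate, 1 of 7 members rose and 1 fell. Acat2, the thiolase that joins acetyl-CoA units (chr17:12942890-12960747, minus strand), stood at 125, 94.0 and 113 CPM in OFF and at 163, 155 and 154 CPM in ON. All OFF libraries lay below all ON libraries, a 1.42-fold fall (log2 fold change -0.51, SE 0.12, adjusted p = 0.00348). The last 500 bases of its transcripts share 20.9% of their 50-base words with Acat3, a neighbouring copy whose row also fell (125 ± 13.6 CPM in OFF and 195 ± 4.56 CPM in ON, SD, n = 3 each; log2 fold change -0.64), so counts of the pair may be exchanged. Pmvk, the phosphomevalonate kinase (chr3:89454541-89469013, plus strand), stood at 21.3, 19.4 and 20.7 CPM in OFF and at 13.7, 10.4 and 14.4 CPM in ON. It was higher in every OFF library, by 1.6-fold (log2 fold change 0.68, SE 0.15, adjusted p = 0.00284). Its promoter above carries 1 CCAAT box.

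The other mevalonate enzymes did not pass. Hmgcs1, which makes HMG-CoA, stood at 38.3, 29.3 and 26.8 CPM in OFF and at 35.4, 29.8 and 32.0 CPM in ON (log2 fold change -0.04, SE 0.14). Mevalonate kinase (Mvk) and mevalonate diphosphate decarboxylase (Mvd), which act before and after Pmvk, gave log2 fold changes of 0.31 (SE 0.26) and -0.16 (SE 0.16), so the 3 consecutive enzymes did not share a called direction. Idi1, the isopentenyl diphosphate isomerase, gave -0.04 (SE 0.14). Fdps, the farnesyl diphosphate synthase, gave -0.11 (SE 0.20) with 125, 97.6 and 62.0 CPM in OFF and 109, 97.6 and 99.7 CPM in ON. The OFF libraries of Fdps thus reached both above and below the ON range. Fdps and Idi1 share 3' sequence with other rows (63.8% of the 50-base words of Fdps with Gm43738, and 43.2% of those of Idi1 with Gm13502), so these levels are uncertain.

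Between farnesyl diphosphate and lanosterol, Fdft1 was called higher and no member lower. Fdft1, the squalene synthase (chr14:63145150-63179578, minus strand), stood at 18.5, 15 and 17.9 CPM in OFF and at 13.7, 12.2 and 9.18 CPM in ON. The groups did not overlap, with a 1.46-fold rise (log2 fold change 0.55, SE 0.17, adjusted p = 0.0183), which no longer passed once ON replicate 2 or 3 was left out (0.0551 and 0.114). Its exons share 774 bases, up to its 3' end, with Ctsb on the opposite strand. Ctsb, the lysosomal protease cathepsin B, rose alongside (52.9 ± 10.1 CPM in OFF and 34.8 ± 3.08 CPM in ON, SD, n = 3 each; log2 fold change 0.61, adjusted p = 0.00348). The authors' strand setting was not stated, and whether reads of Ctsb entered the Fdft1 row was not tested.

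Squalene epoxidase (Sqle), which adds oxygen to squalene, stood at 11.1, 9.91 and 6.05 CPM in OFF and at 11.2, 11.6 and 14.4 CPM in ON. All OFF values lay below all ON values, but the closest were 11.1 and 11.2 CPM, and the test was not passed (log2 fold change -0.46, SE 0.21, adjusted p = 0.102). Without OFF replicate 1 it passed (-0.63, adjusted p = 0.021). Lanosterol synthase (Lss) gave -0.02 (SE 0.20).

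Among the 8 enzymes that turn lanosterol into cholesterol, Tm7sf2 rose, Hsd17b7 fell and 6 did not pass. Tm7sf2, the sterol C14 reductase (chr19:6062821-6068373, minus strand), stood at 30.1, 29.0 and 37.6 CPM in OFF and at 22.4, 23.9 and 24.4 CPM in ON. It was higher in every OFF library by 1.37-fold (log2 fold change 0.45, SE 0.13, adjusted p = 0.015), which did not hold when ON replicate 1 or 2 was dropped (0.0776 and 0.058). Exons of Vps51, on the same strand, share 532 bases with it, the nearest of them 5021 bases from the 3' end of Tm7sf2. Vps51 also holds 11.4% of the 3' words of Tm7sf2, and it did not pass (log2 fold change 0.31, adjusted p = 0.131). Lbr, a further C14 reductase that is not among the members, gave 0.20 (adjusted p = 0.149).

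Hsd17b7, the 3-ketosteroid reductase (chr1:169949535-169969241, minus strand), was the sterol member with the lowest fold change. It stood at 7.55, 8.35 and 6.60 CPM in OFF and at 11.6, 13.4 and 13.1 CPM in ON. The groups were well apart, with a 1.70-fold fall (log2 fold change -0.76, SE 0.17, adjusted p = 0.00246). Nsdhl, which acts in the same demethylation step, lay the other way, at 8.22, 7.46 and 6.60 CPM in OFF and 5.60, 5.58 and 6.20 CPM in ON, without passing (log2 fold change 0.36, adjusted p = 0.166).

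Cyp51, the lanosterol demethylase, and Msmo1, the C4 methyl oxidase, gave log2 fold changes of -0.31 (SE 0.18) and -0.22 (SE 0.13). Neither passed with all libraries, and both passed without OFF replicate 1 (-0.57 and -0.37, adjusted p = 0.00438 and 0.0236). Exons of Cyp51 share 166 bases at its 3' end with Akap9 on the opposite strand (log2 fold change 0.27, adjusted p = 0.143). The late enzymes Ebp, Sc5d and Dhcr7 gave 0.31 (SE 0.14, adjusted p = 0.111), 0.26 (SE 0.16) and 0.13 (SE 0.23). Of these, Sc5d passed without OFF replicate 3 (0.38, adjusted p = 0.0468).

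The regulators gave no call. Srebf2 stood at 47.3, 46.2 and 43.9 CPM in OFF and at 49.3, 44.5 and 48.9 CPM in ON (log2 fold change -0.05, SE 0.11). Insig1, which encodes an anchor of SREBPs and is itself an SREBP target, stood at 8.55, 5.79 and 5.17 CPM in OFF and at 6.05, 7.06 and 6.20 CPM in ON (0.01, SE 0.22). The sterol carrier Stard4 gave 0.17 (SE 0.14). Srebf1 stood at 11.6, 13.1 and 14.4 CPM in OFF and at 12.6, 12.9 and 13 CPM in ON (0.02, SE 0.15); its exons share 109 bases at the 3' end with Rai1 on the opposite strand. For all these the OFF and ON values overlapped. Transcript levels do not show how much SREBP protein was processed.

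**Figure D2:**
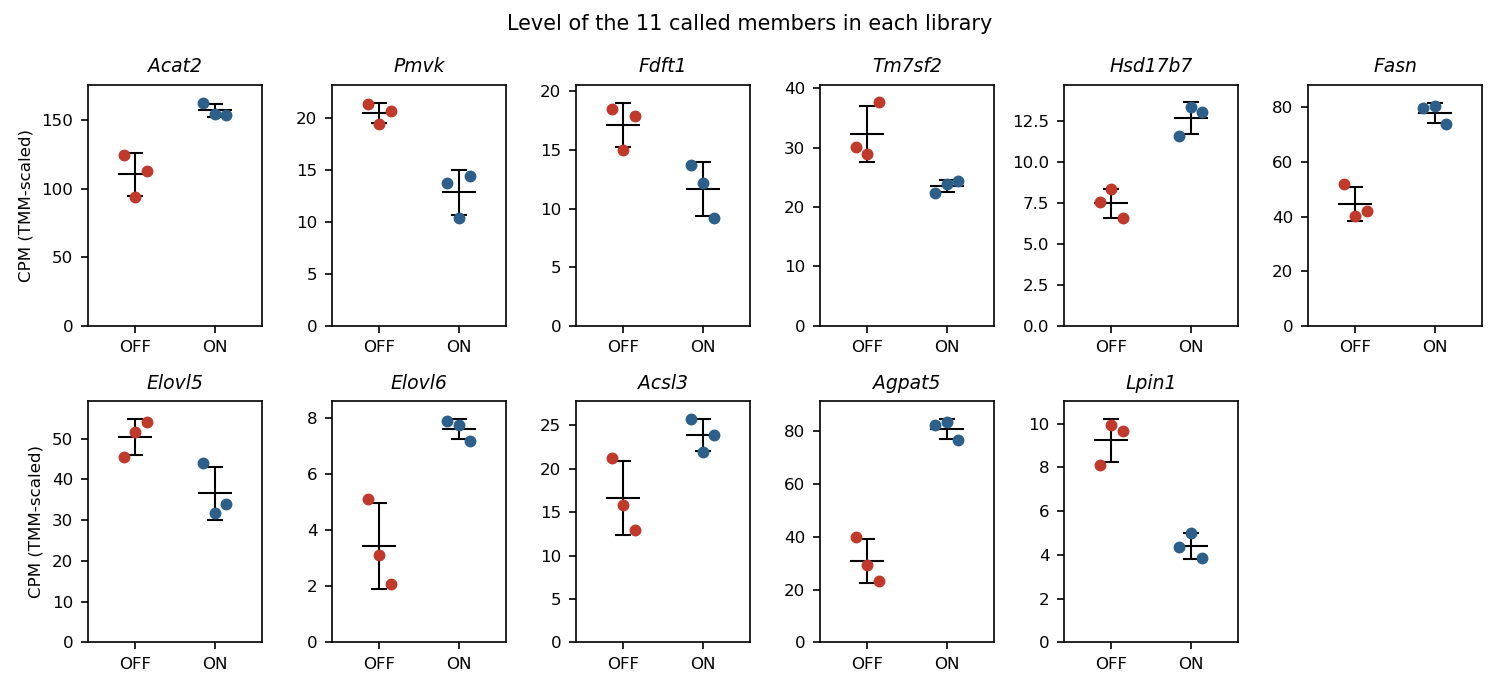
Level of each of the 11 called members in every library (vertical axis, TMM-scaled CPM, starting at 0; red points OFF, blue points ON; black marks show the mean and SD of 3 mice). No called member has an OFF value inside the ON range; neighbouring values lie close for Acsl3 (21.3 CPM in OFF and 22 CPM in ON), Elovl5 (45.6 CPM in OFF and 44 CPM in ON) and Fdft1 (15 CPM in OFF and 13.7 CPM in ON).

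In the fatty acid branch, the enzymes that supply substrate did not pass while fatty acid synthase fell. Acly, which releases cytosolic acetyl-CoA from citrate, stood at 53.6, 46.1 and 53.2 CPM in OFF and at 51.5, 53.0 and 47.0 CPM in ON (log2 fold change 0.01, SE 0.11). Me1, the malic enzyme that yields NADPH, gave -0.23 (SE 0.28). Acaca, which makes malonyl-CoA, stood at 18.5, 12.8 and 12.4 CPM in OFF and at 17.7, 18.2 and 20.3 CPM in ON. OFF replicate 1 lay within the ON range and the other OFF libraries below it, and the test was not passed (-0.36, SE 0.16, adjusted p = 0.104) except without OFF replicate 1 (-0.57, adjusted p = 0.00539). Its 3' end shares 22.4% of its 50-base words with Gm5182, which was not tested.

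Fasn, which joins malonyl-CoA units into palmitate (chr11:120805846-120824547, minus strand), stood at 51.9, 40.1 and 42.0 CPM in OFF and at 79.7, 80.6 and 73.8 CPM in ON. Every OFF library was below every ON library, a 1.75-fold fall (log2 fold change -0.81, SE 0.12, adjusted p = 0.000142). Its promoter above has CCAAT boxes 90, 62 and 59 bases before the start, and that of Elovl5, which was called the other way, has them 71 and 17 bases before.

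Of the 3 elongases of the set, 1 fell, 1 rose and 1 did not pass. Elovl6, which extends palmitate to stearate (chr3:129532355-129638495, plus strand), stood at 5.11, 3.12 and 2.09 CPM in OFF and at 7.88, 7.74 and 7.19 CPM in ON. It fell 2.21-fold (log2 fold change -1.14, SE 0.27, adjusted p = 0.00427), with the OFF libraries far more spread than the ON libraries. Elovl5, which extends polyunsaturated chains (chr9:77917364-77984519, plus strand), stood at 45.6, 51.7 and 54.1 CPM in OFF and at 44.0, 31.8 and 34 CPM in ON. It rose 1.38-fold (log2 fold change 0.46, SE 0.13, adjusted p = 0.0143), but missed the threshold once OFF replicate 2, ON replicate 2 or ON replicate 3 was dropped (0.0595, 0.103 and 0.0843). Elovl1, which extends very long saturated chains, gave -0.21 (SE 0.12, adjusted p = 0.194) and passed without OFF replicate 3 (-0.31, adjusted p = 0.013). Exons of Elovl1 share 53 bases at its 3' end with Cdc20 on the opposite strand (log2 fold change -0.18).

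No tested desaturase passed. Scd2, a stearoyl-CoA desaturase, stood at 95.7, 76.2 and 60.7 CPM in OFF and at 88.5, 71.6 and 54.5 CPM in ON (log2 fold change 0.12, SE 0.19), with a like spread inside both groups. Fads1, the delta-5 desaturase, gave 0.30 (SE 0.21). Scd1 and Fads2 did not reach the filter. Scd1 had 14, 0 and 7 counts in OFF and 0, 2 and 0 counts in ON, and Fads2 had 1 count over all libraries. With no filter on low counts Scd1 passed upwards (adjusted p = 0.00817), although OFF replicate 2 had no count. A count of 0 allows up to 3 counts in such a library, 0.33 to 0.372 CPM, for counting error only.

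The last role, activation of fatty acids and their assembly into glycerolipids, had 3 tested members. All were called, 1 higher and 2 lower, beside 34.8% of all tested rows, and whether so small a group differs was not tested. Acsl3, an acyl-CoA synthetase of the endoplasmic reticulum and lipid droplets (chr1:78657825-78707743, plus strand), stood at 21.3, 15.8 and 12.9 CPM in OFF and at 25.7, 22 and 23.9 CPM in ON. It fell 1.43-fold (log2 fold change -0.52, SE 0.17, adjusted p = 0.0253). Dropping any library other than OFF replicate 1 took its adjusted p above the threshold (0.0514 to 0.107). Far from its 3' end, 244 exonic bases are shared with Utp14b on the same strand, which also fell (log2 fold change -0.74).

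Agpat5, an acyltransferase that adds the second fatty acid to lysophosphatidic acid (chr8:18846277-18891361, plus strand), stood at 39.9, 29.3 and 23.3 CPM in OFF and at 82.5, 83.6 and 76.5 CPM in ON. Every OFF library was far below the lowest ON library, a 2.62-fold fall (log2 fold change -1.39, SE 0.16, adjusted p = 2.26e-05). An antisense RNA, Gm35934, shares 2043 exonic bases with it, but that row held 14 counts over all libraries. Lpin1, the phosphatidate phosphatase that yields diacylglycerol (chr12:16535669-16610966, minus strand), stood at 8.11, 9.91 and 9.68 CPM in OFF and at 4.34, 5.01 and 3.85 CPM in ON. It rose 2.09-fold with no overlap (log2 fold change 1.06, SE 0.20, adjusted p = 0.000845). Gpam, the mitochondrial acyltransferase that starts glycerolipid synthesis, was below the filter, with 5, 2 and 3 counts in OFF and 8, 6 and 7 counts in ON.

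**Figure D3:**
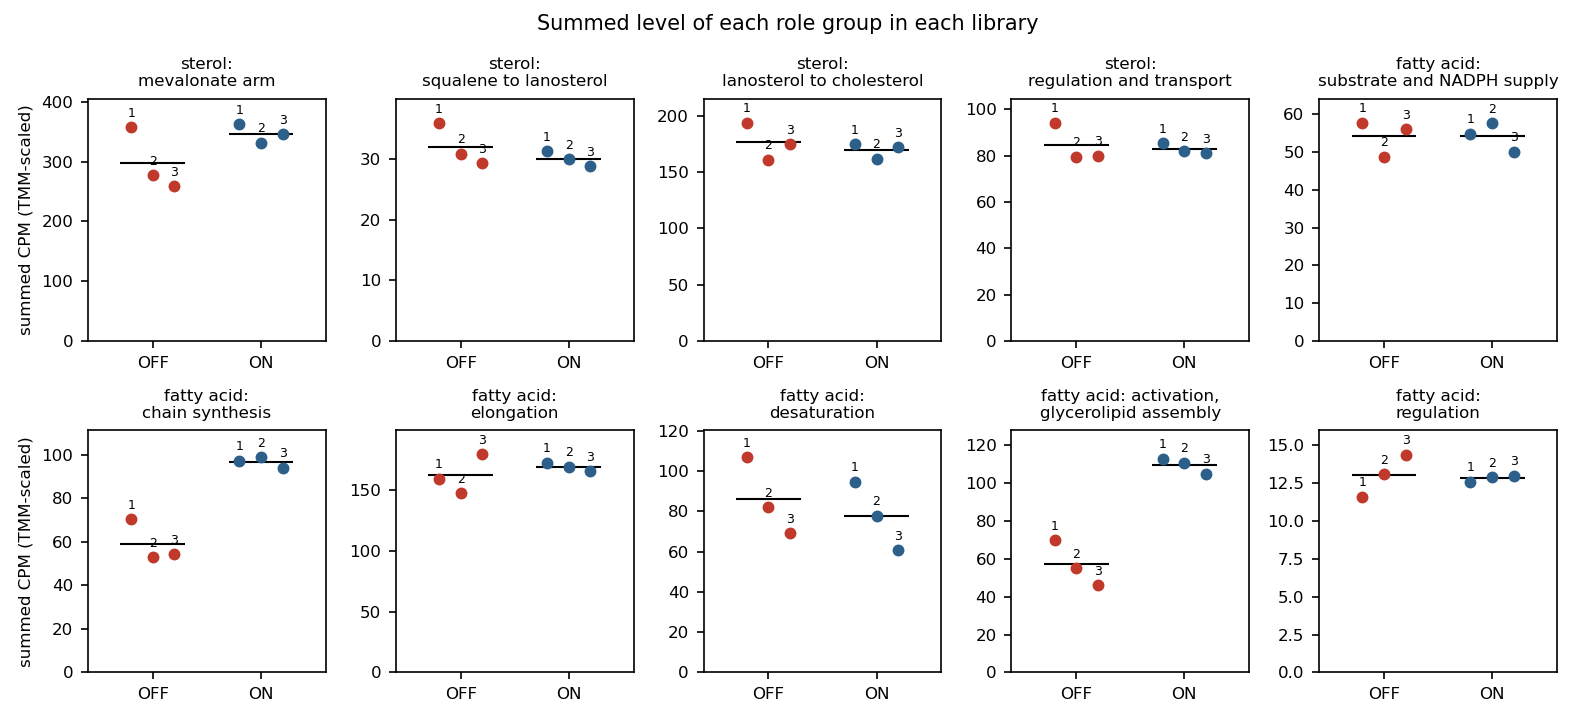
Summed level of the members of each role group in every library (vertical axis, TMM-scaled CPM, starting at 0; red points OFF, blue points ON, numbered by replicate; the line is the mean). Chain synthesis (59.3 CPM in OFF and 96.8 CPM in ON) and activation with glycerolipid assembly (57.1 CPM in OFF and 110.0 CPM in ON) keep the groups apart. In every other fatty acid group, as in all 4 sterol groups, the OFF and ON values overlap.

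Summed over members, the fatty acid branch stood at 475, 399 and 420 CPM in OFF and at 545, 528 and 488 CPM in ON, with every OFF library below every ON library. The sterol branch stood at 682, 548 and 543 CPM in OFF and at 655, 606 and 628 CPM in ON. Here OFF replicate 1 was the highest of the 6 libraries and OFF replicates 2 and 3 were the lowest, so the groups overlapped. Such sums are dominated by the members with the most counts. The fatty acid sum includes Agpat5 (means of 30.8 CPM in OFF and 80.9 CPM in ON) and Fasn (44.7 and 78.1 CPM). It is no measure of a fall across the branch, where 6 of 13 tested members had a positive log2 fold change and 7 a negative one.

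Members of both branches, the sterol members most often, varied inside the OFF group in a shared way. OFF replicate 1 was higher than OFF replicate 3 in 19 of 21 sterol members and higher than OFF replicate 2 in 20 of 21, whereas over all tested rows the shares were 49.6% and 50.7%. The median log2 ratio of OFF replicate 1 to OFF replicate 3, after adding 0.5 CPM to each, was 0.30 in sterol members and 0 over all tested rows. OFF replicate 1 was 2.02-fold higher than OFF replicate 3 for Fdps, 1.91-fold for Mvk, 1.84-fold for Sqle, 1.76-fold for Cyp51 and 1.65-fold for Insig1. The exceptions against OFF replicate 3 were Tm7sf2 and Ebp (0.80-fold and 0.841-fold). In the fatty acid branch OFF replicate 1 was above OFF replicate 3 in 9 of 13 tested members, with a median log2 ratio of 0.30. It was above OFF replicate 2 in 10 of 13. The median log2 ratio of OFF replicate 1 to OFF replicate 2 was 0.37 in fatty acid members, 0.29 in sterol members and 0.01 over all tested rows. No test was made of these counts, since they compare single libraries.

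Set against the ON range, OFF replicate 1 lay above all 3 ON libraries in 12 of 21 sterol members and below all in 3. OFF replicate 2 lay above in 5 and below in 9, and OFF replicate 3 above in 6 and below in 10. Over all tested rows each OFF library lay above all ON libraries in 37.7% to 40.4% of rows and below in 37.3% to 40.4%. OFF replicate 1 held the highest value of all 6 libraries in 10 of 21 sterol members and OFF replicate 3 the lowest in 8. The like shares over all tested rows were not computed, so these counts are not shown to be particular to sterol members. The median SD of log2 CPM within the sterol branch was 0.22 in OFF and 0.13 in ON, close to the 0.20 in OFF and 0.13 in ON of all tested rows. For tested fatty acid members it was 0.29 in OFF and 0.089 in ON.

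**Figure D4:**
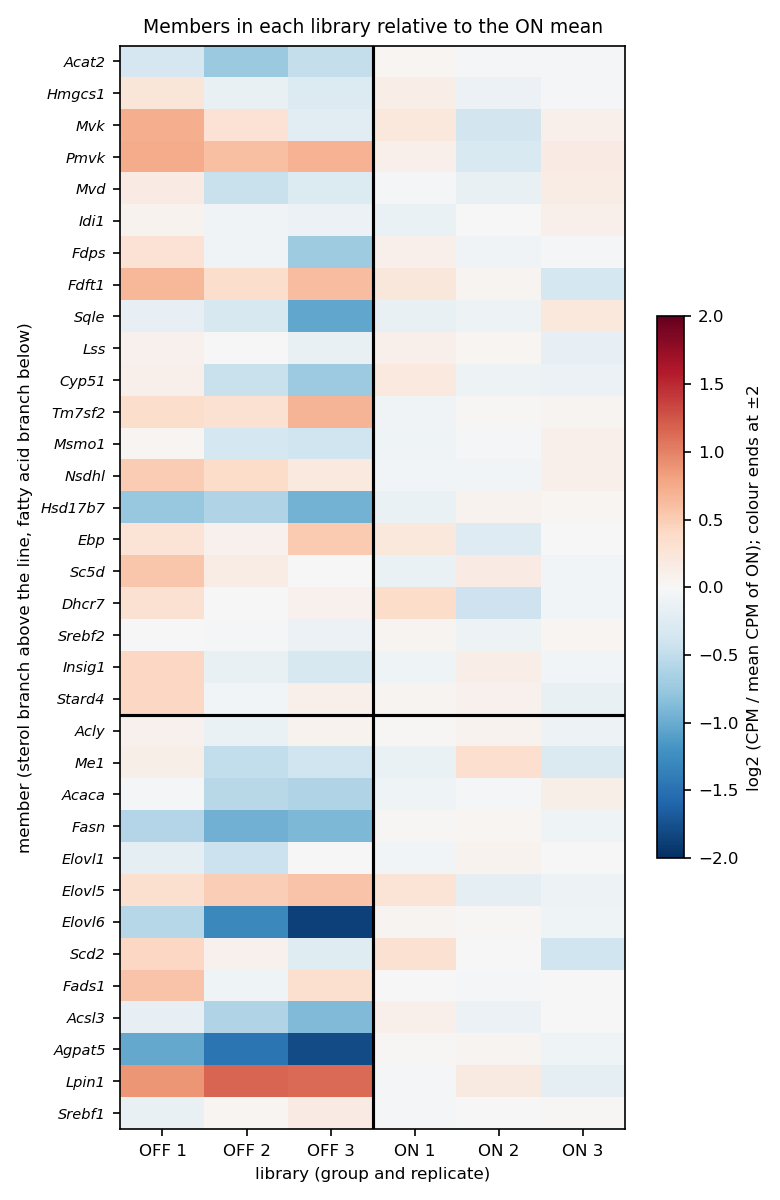
Each tested member (rows, in pathway order) in each library (columns), coloured by the log2 ratio of its CPM to the ON mean, red above and blue below. OFF replicate 1 is red in most sterol rows, 12 of 21 above all ON libraries, where OFF replicates 2 and 3 are mixed, and Agpat5, Fasn and Elovl6 are blue in every OFF column.

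Other genes of these pathways were counted as whole lists. Of 11 other sterol synthesis and SREBP control genes, 9 were tested, none was called higher and 1 was called lower by edgeR, 11.1% against 34.8% of all tested rows; at an unadjusted p of 0.05 these counts were the same, 0 and 1, and DESeq2 and limma-voom called 0 higher and 1 lower. The call was Ggps1, which makes geranylgeranyl diphosphate at a branch from the mevalonate route (19.1 ± 0.295 CPM in OFF and 26.5 ± 2.03 CPM in ON, SD, n = 3 each; log2 fold change -0.47, SE 0.12, adjusted p = 0.00864, and 0.0575 without ON replicate 2). The SREBP escort Scap did not pass (log2 fold change -0.09, SE 0.14), and its OFF and ON values overlapped.

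Of 18 genes of sterol uptake, storage and export, 12 were tested, 4 called higher and none lower by edgeR. This is a share of 33.3%, near the 34.8% of all tested rows. At an unadjusted p of 0.05 these counts were the same, 4 and 0, and DESeq2 and limma-voom called 4 higher and 0 lower. Lipa, the lysosomal acid lipase that frees cholesterol from its esters, averaged 34.3 ± 4.31 CPM in OFF and 20.0 ± 2.18 CPM in ON (SD, n = 3 each). Npc2, which binds cholesterol inside the lysosome, averaged 251 ± 54.7 CPM in OFF and 150 ± 7.74 CPM in ON (SD, n = 3 each). The log2 fold changes of Lipa and Npc2 were 0.78 and 0.74 (adjusted p = 0.000504 and 0.000722). Lrp1, a lipoprotein receptor, averaged 5.50 ± 1.98 CPM in OFF and 1.98 ± 0.32 CPM in ON (SD, n = 3 each; log2 fold change 1.46, adjusted p = 0.00256). Mylip, a sterol-induced ubiquitin ligase, averaged 13.7 ± 2.22 CPM in OFF and 9.27 ± 0.936 CPM in ON (SD, n = 3 each; log2 fold change 0.56, adjusted p = 0.0192), which missed the threshold whenever OFF replicate 2 or an ON library was dropped (0.0501 to 0.0991). The myeloid maturation list given above moved with these lysosomal genes, and its part in them was not tested.

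Of 35 other fatty acid synthesis and glycerolipid genes, 22 were tested, 4 called higher and 6 lower. This is a share of 45.5%, beside 34.8% of all tested rows, and whether the shares differ was not tested. With single libraries dropped, the calls ran between 2 and 7 upwards and between 2 and 5 downwards, while 23.5% to 38.9% of all tested rows were called. At an unadjusted p of 0.05 by edgeR, 5 were higher and 6 lower. DESeq2 called 3 higher and 4 lower, and limma-voom 4 higher and 5 lower. Hacd3 and Hsd17b12, which act with the elongases in the endoplasmic reticulum, averaged 8.05 ± 1.83 and 39.7 ± 7.76 CPM in OFF, against 19.3 ± 1.11 and 72.5 ± 1.52 CPM in ON (SD, n = 3 each; log2 fold changes -1.26 and -0.87, adjusted p = 6.51e-05 and 0.000178). Tecr, the reductase of the same elongation cycle, was called the other way (89.5 ± 3.9 CPM in OFF and 68.8 ± 2.46 CPM in ON, SD, n = 3 each; log2 fold change 0.38, adjusted p = 0.0103, and 0.0741 without ON replicate 3). Of the other dehydratases of that cycle, Hacd1 was called lower (log2 fold change -0.36, adjusted p = 0.0448, a call lost in 9 alternatives) and Hacd2 did not pass (0.07, SE 0.31). Acsl1, an acyl-CoA synthetase, rose (103 ± 11.4 CPM in OFF and 71 ± 1.35 CPM in ON, SD, n = 3 each; log2 fold change 0.53, adjusted p = 0.00198). Dgat1, which makes triglyceride, rose by 0.60 on the log2 scale (adjusted p = 0.0034) and averaged 76.1 ± 15.3 CPM in OFF and 50.3 ± 2.94 CPM in ON (SD, n = 3 each). Of 23 fatty acid oxidation genes, 20 were tested, 1 called higher and 2 lower, a share of 15% beside the same 34.8%. With single libraries dropped these counts ran between 0 and 3 and between 1 and 4. At an unadjusted p of 0.05 by edgeR, 3 were higher and 4 lower. DESeq2 called 1 higher and 1 lower, and limma-voom 1 higher and 2 lower. The called genes were Etfb (log2 fold change 0.37, adjusted p = 0.0133, and 0.101 without ON replicate 2), Hadhb (-0.53, adjusted p = 0.00365) and Eci1 (-0.41, adjusted p = 0.0385). The call of Eci1 was lost in 7 alternatives, at 0.0508 to 0.19, among them dropping OFF replicate 1 or 2 or ON replicate 2 or 3.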

How the data were processed

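The submitters' processing notes list limma 3.42.2, R 3.6.1, featureCounts, Subread 1.6.3, HISAT2 2.0.4, cutadapt 1.9.1, FastQC 0.11.6 and bcl2fastq 2.17.1.14, and the build mm10. Strand setting, annotation and multimapping rules are not stated there. The Lexogen QuantSeq kit reads mRNA 3' ends, per the labels' protocols, so counts do not scale with transcript length. The authors' deposited table holds raw counts; rows with no name (0.145% to 0.172% of counts) were left out. The authors' deposited log2 values (12287 genes, 34 of the members) served only as an alternative. Ribosomal RNA locus rows took 10.1% to 18% of counts, and leaving them out was an alternative.

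Counts were fitted in R 4.3.3 with edgeR 4.0.16: filterByExpr with its defaults (minimum count 10, minimum total 15), TMM scaling, robust dispersions, glmQLFit and glmQLFTest, OFF against ON, with no covariate. Benjamini-Hochberg adjustment ran over the 13652 tested rows. The SE is the fold change divided by the square root of F. The procedure was also run on simulated counts drawn with dispersions estimated from these data. Far fewer rows were changed there than were called here, so that run does not measure the error rate in these data. With 3 against 3 mice an exact permutation of a single gene cannot go below p = 0.1, so the model's adjusted p was used. Replicates of each group differed by more than sampling noise (chi-square per degree of freedom 2.8 to 35.2). Limits on a count of 0 cover counting error only, since no molecular identifiers separate PCR copies from molecules. Alternatives were edgeR's RLE and upper quartile scaling, no filter, a filter of 10 CPM in 3 libraries, DESeq2 1.42.0, limma 3.58.1 with voom, a replicate block and each library left out in turn.

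The members, the branches and the related lists were chosen with earlier results of these data known. Members passing the threshold were named with all values. Of each related list the called members with the smallest p were named, up to 4; Scap, Lbr, Tecr, Hacd1 and Hacd2 were added after their values were seen. Some genes of these lists are not reported here. The genes with overlapping exons or shared 3' sequence come from GENCODE M21 (GRCm38, the build of mm10) by exon coordinates and by 50-base words of the last 500 bases of coding transcripts. RefSeq's promoter table held 29 of the 37 members by symbol; where it gave several starts, the most upstream was used.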

Additional observations from a re-analysis of the deposited data

How the results depend on the processing

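Of the 11 called members, 7 passed in every alternative in which they were tested (Acat2, Pmvk, Hsd17b7, Fasn, Elovl6, Agpat5 and Lpin1). Fdft1, Tm7sf2, Elovl5 and Acsl3 lost the call in at least 1, as given above, and Fdft1 and Acsl3 also with limma on the authors' deposited log2 values (adjusted p = 0.0507 and 0.0766). Of the 23 members not called, 6 passed in at least 1 alternative, each by leaving out OFF replicate 1 or 3. No called value changed sign. On leaving out each library in turn, sterol members gave 1 to 4 higher and 2 to 5 lower with a median log2 fold change of -0.08 to 0.13, and fatty acid members 1 to 2 higher and 3 to 5 lower with a median of -0.23 to -0.02; over all rows 1615 to 2704 were higher and 1678 to 2740 lower. The sterol median, -0.02 with all libraries, was 0.13 without OFF replicate 3, and the fatty acid median, -0.21, was -0.02 without ON replicate 2. With at least 10 CPM in 3 libraries, 1 fatty acid member was higher, because Lpin1 was no longer tested. Same-numbered mice did not visibly deviate together (correlations of -0.076 to 0.035, and -0.037 to 0.087 for mice of different number). So few mice cannot exclude that those of the same number shared a batch. With the replicate block 3 sterol members were higher and 2 lower, and 2 fatty acid members higher and 4 lower. Over all rows 2173 were then higher and 2230 lower. A single count was worth 0.11 to 0.124 CPM; how far depth and how far the spread between mice set the precision of low members was not tested. Labels do not say that the mice came from separate cultures, so p-values measure the spread between mice given 1 line.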

Other observations

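Gm3571, which shares 44.9% of the 50-base words at the 3' end of Fdps, stood at 48.5, 37.5 and 24.2 CPM in OFF and at 46.7, 40.7 and 37.1 CPM in ON. OFF replicate 1 was the highest library and OFF replicate 3 the lowest, as for Fdps. By position, 6 of the 37 members lie on chromosome 19 (Tm7sf2, Scd1, Scd2, Fads1, Fads2 and Gpam), of which Tm7sf2, Scd2 and Fads1 were tested and Tm7sf2 was called.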
